A study of Mus musculus with 6 samples.

Results

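The genes described here are the 4 pyruvate dehydrogenase kinases Pdk1, Pdk2, Pdk3 and Pdk4, the catalytic phosphatase subunits Pdp1 and Pdp2, and the phosphatase regulatory subunit Pdpr. A probe set was taken where the platform annotation gave it exactly 1 gene symbol and that symbol was one of these 7. The rule found 88 of 269751 probe sets, and the 7 genes stood among 23152 with a single symbol. RNA came from sorted regulatory T cells (Tregs; CD4+CD25high), which hold immune responses in check, and was hybridised to Affymetrix Mouse Gene 2.0 ST arrays. The cells came from the spleens of untreated male mice aged 45 weeks kept under specific-pathogen-free conditions. The knockout group (KO) held 3 DJ-1-/- mice and the control group (WT) 3 DJ-1+/+ littermates, with 1 array per mouse. DJ-1 is the protein encoded by Park7; the construction of the knockout allele is not stated in the labels. In bulk cells, fewer cells of a type and less RNA per cell cannot be told apart. Precision is limited by the 3 arrays a group.

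The pyruvate dehydrogenase complex of the mitochondrial matrix turns pyruvate into acetyl-CoA and so links glycolysis to the tricarboxylic acid cycle. The kinases switch it off by adding phosphate to its E1 alpha subunit, the product of Pdha1, and the phosphatases switch it on again by removing that phosphate. In T cells this switch is one of the points that set how much pyruvate is oxidised and how much is turned into lactate. The series title links DJ-1 to the activity of this complex, so the comparison asks whether transcripts of its kinases and phosphatases differed between genotypes. Arrays measure neither enzyme activity nor phosphorylation.

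The targeted gene followed the labels. Park7 lay at 9.48, 9.27 and 9.70 log2 units in WT replicates 1 to 3 and at 6.06, 5.96 and 5.71 in KO replicates 1 to 3. Defining markers of the sorted cells were bright, with 0 of the 7 listed Treg and CD4 T cell markers within the range of olfactory receptor genes, which stood in for background because the table holds no detection call. The 95th percentile of the mean log2 value of 1098 olfactory receptor genes was 6.55, and 6.79 over their 1822 probe sets. KO replicate 1 stood apart on the first principal component, with 45.6% of the variance, and over the tested genes its median deviation from the other arrays' mean was -0.11. Values without it are given for each of the 7 genes, and for the pathway lists and their named genes where they turned direction or moved by more than 1.5 times. The summed intensity of the 9 measured genes of a B cell and MHC class II list was 5610 to 5940 in WT and 3440 to 4130 in KO. Of the 7 genes of that list in the test all were lower, 2 past the threshold (H2-Aa and H2-Ab1). The groups did not overlap in 4, these 2 with H2-Eb1 (-0.60) and Cd74 (-0.67, limma adjusted p = 0.117), the brightest of the list. Of the 9, 2 (Ms4a1 and Pax5) lay in the olfactory receptor range. The B cell receptor genes Cd79b (mean 9.49 log2 units) and Cd79a (6.74) and the B cell surface gene Cd22 (7.87) lay above it, with overlapping groups. The summed intensity of 9 macrophage and monocyte markers was 716 to 1080 in WT and 558 to 682 in KO, also without overlap, with 6 of the 9 in the olfactory receptor range. All 6 of its tested genes were lower, 3 without overlap, and Vcam1, an adhesion molecule, passed (-1.15, limma adjusted p = 0.0343). Over all tested genes 59.7% were lower, 11.3% were lower without overlap and 0.274% passed the threshold. The summed Treg and CD4 T cell markers were also lower without overlap, at 31900 to 32300 in WT and 29900 to 31300 in KO. Of the 7, 6 were lower, 2 of them without overlap (Ikzf2 at -0.20 and Cd3e at -0.19), and 0 passed the threshold. Foxp3, the 1 that was higher, differed by 0.064 without overlap (limma adjusted p = 0.886). Il2ra (-0.0013) and Ctla4 (-0.0050) hardly differed. The sums overlapped for NK cell markers (668 to 774 in WT, 582 to 711 in KO, 3 of 6 in the olfactory receptor range) and for neutrophil markers (274 to 297 and 270 to 317, 4 of 5). Among the NK cell markers Ncr1 (-0.85, limma adjusted p = 0.212) and Klrd1 (-0.65, too dim to be tested) were lower without overlap. Klrb1c was higher without overlap (0.28, limma adjusted p = 0.552), and Gzma, Prf1 and Eomes overlapped. The sums did not overlap for the CD8 T cell pair (458 to 505 and 361 to 436, with Cd8a in the olfactory receptor range). Of the erythroid list only Alas2 was measured (23.2 to 36.6 and 16.1 to 30.8). The part of other cells in the differences below was not tested.

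Pdk3, the kinase encoded on the X chromosome, was the member with the lowest KO values relative to WT. No member passed the threshold, an adjusted p of 0.05 in limma over 13891 genes, which 0.274% of the tested genes passed. Of the 7 genes 6 were bright enough to be tested, and of these 5 were lower in KO and 1, Pdk1, was higher. Pdk4 lay under the filter on dim genes and has values but no test. At an unadjusted limma p of 0.05, 1 of the 6 members passed, against 10.7% of all tested genes. The median difference of the 6 was -0.18, beside -0.052 over all tested genes, of which 59.7% lay below 0. The groups did not overlap in 2 of the 6 (Pdk2 and Pdk3), both lower in KO, against 11.3% of all tested genes lower in KO without overlap and 6.1% higher. An exact permutation test of 3 arrays against 3 cannot give a p below 0.10.

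**Figure D1:**
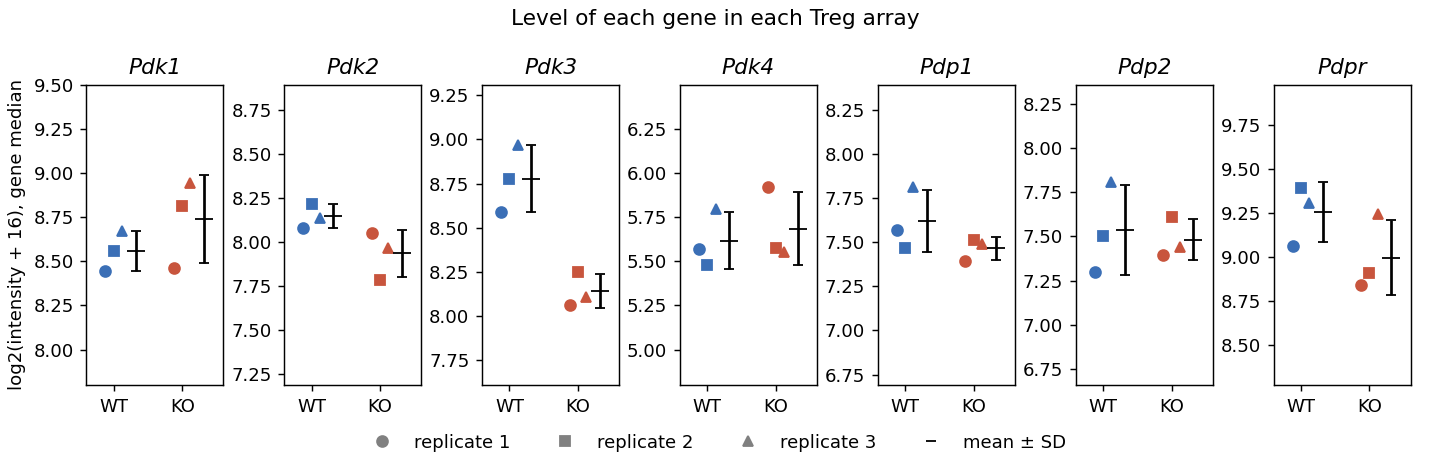
Level of each of the 7 genes in each array. The vertical axis is the gene's median log2(intensity + 16) over its probe sets, with the same span but another centre in each panel; circles, squares and triangles are replicates 1 to 3, and the black mark is the mean ± SD of 3 arrays. The 3 KO values of Pdk3, 8.06 to 8.25, lie below its 3 WT values, 8.59 to 8.97, and those of Pdk2 also lie below its WT values, while the groups of the other 5 genes overlap.

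Pdk3 stood at 8.59, 8.77 and 8.97 log2 units in WT replicates 1 to 3 and at 8.06, 8.25 and 8.11 in KO replicates 1 to 3. Every KO array lay below every WT array. As linear medians over the gene's probe sets these were intensities of 369, 427 and 491 in WT and 252, 296 and 262 in KO. The KO mean of 8.14 ± 0.10 lay below the WT mean of 8.78 ± 0.19 (SD, n = 3 each); the difference was -0.64 on the log2(intensity + 16) scale (SE 0.148, 95% interval -0.97 to -0.31). The limma p was 0.00168 before and 0.163 after adjustment over all genes, so the difference did not pass. It was the 143rd smallest p of 13891, and 2.35% of tested genes differed by more in either direction. Without KO replicate 1 the difference was -0.60 (limma adjusted p = 0.201), and with any single array left out it ran from -0.73 to -0.54.

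The size of the Pdk3 difference depended on how its 16 probe sets, each covering a stretch of the transcript, were joined. The gene value is the median level over probe sets, and its difference exceeded that of all but 2 of them. The median of the 16 probe-set differences was -0.38, and -0.31 without KO replicate 1. The mean of probe sets gave -0.36 (limma adjusted p = 0.232) and bright probe sets alone -0.37 (0.397). The direction was shared by 15 of the 16 probe sets, where 53% of all probe sets on the array lay below 0. Of the 12 that exceeded the olfactory receptor level 11 were lower, against 54.3% of all such probe sets. Probe sets of the same gene read the same RNA samples, so these counts are not independent.

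In 4 of the 16 Pdk3 probe sets (25%) the groups did not overlap, all 4 lower in KO, against 7.64% of all probe sets. Probe set 17543205 had the largest difference, with intensities of 374, 359 and 563 in WT and 234, 224 and 227 in KO (-0.85, SE 0.202, limma adjusted p = 0.527 over all probe sets). Its KO arrays were close together and below each WT array. Probe set 17543208, the brightest, stood at 1255, 1214 and 1187 in WT and 597, 966 and 981 in KO (-0.55). Here KO replicate 1 was the lowest array, and the other KO arrays were also below WT. Probe set 17543209 stood at 820, 840 and 611 in WT and 270, 522 and 596 in KO (-0.75), with KO replicate 1 again the lowest. Probe set 17543203 stood at 208, 275 and 174 in WT and 137, 147 and 164 in KO (-0.49). The single probe set higher in KO, 17543212, differed by 0.21, with KO replicate 1 at 938 and the other 5 arrays between 551 and 731. KO replicate 1 lay below all WT arrays in 11 of the 16 probe sets, KO replicate 2 in 7 and KO replicate 3 in 12. None of the 88 member probe sets passed limma over all probe sets, a threshold that 0.00111% of them passed; 10 of the 88 (11.4%) had an unadjusted p under 0.05, against 7.59% of all probe sets.

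**Figure D2:**
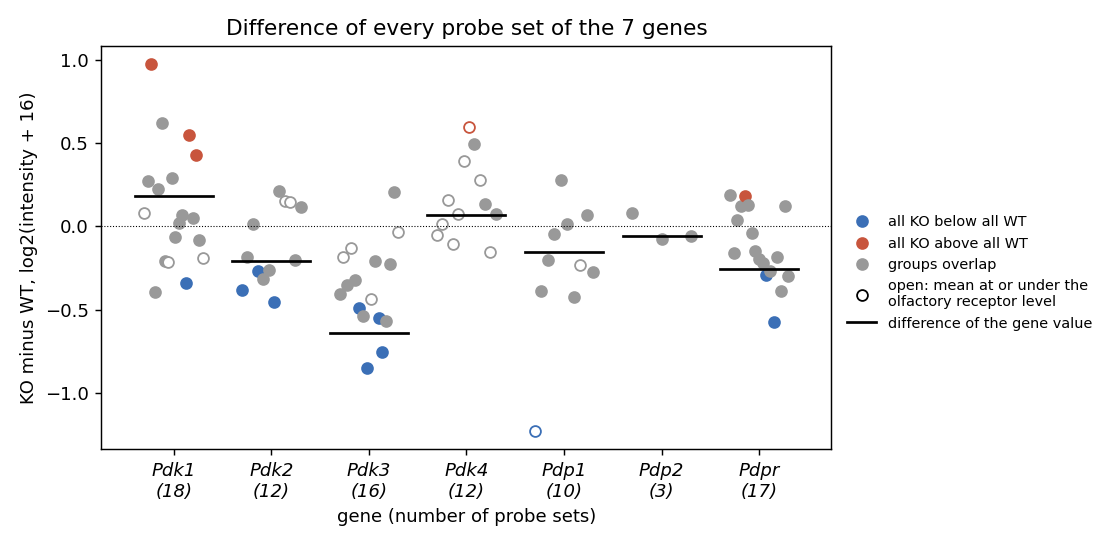
KO minus WT difference of each of the 88 probe sets, on the log2(intensity + 16) scale, grouped by gene with probe sets in number order from left to right. Blue and red mark probe sets whose groups do not overlap, open symbols those in the olfactory receptor range, and black lines the difference of the gene value. In Pdk3 15 of 16 points lie below 0, and its black line at -0.64 lies under 14 of the 16.

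Pdk2, a widely expressed kinase, stood at 8.08, 8.22 and 8.14 in WT and 8.05, 7.79 and 7.97 in KO. All KO arrays lay below all WT arrays, but KO replicate 1 and WT replicate 1 were separated by a narrow gap. The means were 8.15 ± 0.07 and 7.94 ± 0.13, a difference of -0.21 (SE 0.137, 95% interval -0.52 to 0.10, limma adjusted p = 0.629, n = 3 each). Without KO replicate 1 it was -0.27. With bright probe sets it was -0.12, as with the mean of probe sets. Of 12 probe sets 7 were lower, where 53% of all probe sets lay below 0. The groups did not overlap in 3 (25%), all lower in KO, against 7.64% of all probe sets. Probe set 17268130 differed most, with 807, 749 and 857 in WT and 525, 649 and 581 in KO (-0.45, limma adjusted p = 0.595). Probe sets 17268121 (-0.38) and 17268125 (-0.27) also did not overlap.

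Pdk1, the kinase best known as a target of hypoxia-inducible factor, was the tested member with a higher mean in KO. It stood at 8.45, 8.56 and 8.67 in WT and 8.46, 8.81 and 8.95 in KO. KO replicates 2 and 3 lay above every WT array, and KO replicate 1 lay among them. The means were 8.56 ± 0.11 and 8.74 ± 0.25, a difference of 0.18 (SE 0.161, 95% interval -0.18 to 0.54, limma adjusted p = 0.721, n = 3 each), and 0.32 without KO replicate 1 (0.420). It was 0.080 without KO replicate 3. One of the 18 probe sets, 17548206, has a number far from the others, and without it the difference was 0.12, an alternative chosen after the data were seen.

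The Pdk1 probe sets did not move as a block. Of the 18, 11 were higher and 7 lower in KO, with a median difference of 0.059. Groups did not overlap in 4 (22.2%), 3 of them higher in KO, where 6.17% of all probe sets were higher without overlap. Probe set 17371851 stood at 164, 202 and 274 in WT and 394, 435 and 449 in KO (0.97, SE 0.206, limma adjusted p = 0.51). Every KO array lay above every WT array. Probe set 17371864 stood at 306, 377 and 319 in WT and 606, 391 and 507 in KO (0.55). Probe set 17371868 stood at 515, 430 and 488 in WT and 706, 584 and 655 in KO (0.43). In probe set 17371863 the order was opposite, with 106, 146 and 109 in WT and 76.4, 102 and 95.4 in KO (-0.34). The symbol Pdk1 is also an older name of Pdpk1, a different kinase, which has probe sets of its own under its current name on this array.

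Pdk4, the kinase induced in fasting muscle and liver through PPAR, FOXO and glucocorticoid signals, was dim in these cells. It stood at 5.57, 5.48 and 5.79 in WT and 5.92, 5.58 and 5.55 in KO, with the groups overlapping. Its mean lay above 75% of olfactory receptor genes, under their 95th percentile. Linear medians were 31.7, 29.1 and 39.6 in WT and 45.1, 31.9 and 31.0 in KO. The difference was 0.068; leaving out WT replicate 3 gave 0.16 and leaving out KO replicate 1 gave -0.051. Of 12 probe sets 3 exceeded the olfactory receptor level, all with overlapping groups. The brightest of the 12, 17464667, stood at 508, 283 and 316 in WT and 443, 328 and 368 in KO (0.074). Probe set 17464662 stood at 239, 190 and 118 in WT and 219, 258 and 291 in KO (0.50). The 1 probe set without overlap, 17464661, had intensities of 14.6, 8.79 and 7.87 in WT and 25.1, 21.2 and 25.2 in KO, all of the order of the offset of 16 or lower.

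The phosphatase genes differed by less than Pdk3 and each had overlapping groups. Pdp1, the calcium-stimulated catalytic subunit, stood at 7.57, 7.47 and 7.81 in WT and 7.39, 7.51 and 7.49 in KO. WT replicate 3 was the highest array and KO replicate 1 the lowest. The difference was -0.15 (SE 0.143, 95% interval -0.47 to 0.17, limma adjusted p = 0.736), and leaving out KO replicate 1 or WT replicate 3 gave -0.12 or -0.055. It was 0.068 with bright probe sets, so its direction was not settled. Of its 10 probe sets 7 were lower. The smallest limma p of all 88 member probe sets was at Pdp1 probe set 17423322 (limma adjusted p = 0.425). Its intensities were 20.8, 27.7 and 31.6 in WT and 0.06, 1.17 and 5.71 in KO, all in the range of olfactory receptor probe sets, so no size is given for this difference. The brightest Pdp1 probe set, 17423325, stood at 915, 1072 and 1142 in WT and 791, 1171 and 1096 in KO (-0.046).

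Pdp2, the second catalytic subunit, had 3 probe sets and the smallest difference among the tested members. It stood at 7.30, 7.50 and 7.81 in WT and 7.39, 7.61 and 7.44 in KO. The KO arrays lay within the WT range. The difference was -0.055 (SE 0.163, 95% interval -0.42 to 0.31, limma adjusted p = 0.93). Leaving out KO replicate 1 gave -0.011, and leaving out WT replicate 3 turned it to 0.081. Of its probe sets 2 were lower and 1, 17504468 (0.080), was higher, and all overlapped.

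Pdpr, which lowers the sensitivity of the phosphatase to magnesium, stood at 9.06, 9.39 and 9.31 in WT and 8.84, 8.91 and 9.24 in KO. KO replicate 3 lay within the WT range and the other KO arrays below it. The means were 9.25 ± 0.17 and 8.997 ± 0.21 (SD, n = 3 each), a difference of -0.26 (SE 0.161, 95% interval -0.62 to 0.10, limma adjusted p = 0.614). It was -0.18 without KO replicate 1, -0.12 with the mean of probe sets and -0.075 with bright probe sets. Of 17 probe sets 11 were lower, 2 without overlap, and 6 were higher, 1 without overlap. The share without overlap in either direction was 17.6%, against 13.8% of all probe sets. Probe set 17505734 stood at 253, 266 and 280 in WT and 189, 165 and 168 in KO (-0.57, SE 0.13, limma adjusted p = 0.521), with a wide gap between the groups. Probe set 17505731 differed by -0.29 and 17505725 by 0.18. All 17 Pdpr probe sets exceeded the olfactory receptor level.

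**Figure D3:**
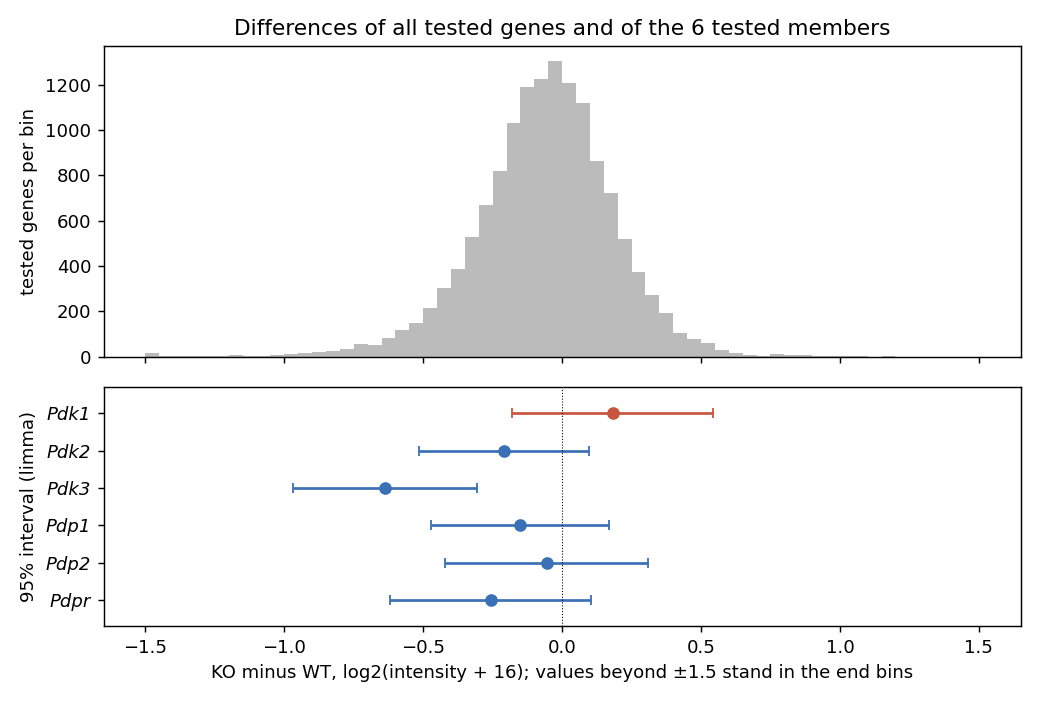
Differences of all 13891 tested genes as counts per bin of 0.05 log2 units (top) and of the 6 tested members with their 95% limma intervals (bottom), on one axis of KO minus WT log2(intensity + 16). The interval of Pdk3, -0.97 to -0.31, lies below 0, and those of the other 5 members span 0. The intervals are per gene, without adjustment over the 13891 genes, and the limma adjusted p of Pdk3 was 0.163.

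Over the 88 probe sets 52 were lower and 36 higher in KO, and 18.2% had groups without overlap, 11 lower and 5 higher, against 13.8% of all probe sets. Of the 68 that exceeded the olfactory receptor level 41 were lower, where 54.3% of all such probe sets were. Of the 68, 10 were lower and 4 higher without overlap, against 9.27% and 7.26% of all such probe sets. A scaling to equal medians moved the difference of Pdk3 to -0.59, of Pdk2 to -0.16 and of Pdk1 to 0.23, and no member changed its sign under it or under quantile normalization. The median over all tested genes, -0.052 as reported, was -0.0032 with equal medians and -0.0097 with quantile normalization. The share of tested genes lower in KO, 59.7% as reported, was then 50.5% and 52%. The 59.7% given beside the gene counts therefore depends on the scale between arrays. None of the 7 genes lay within 10 Mb of Park7, by the RefSeq table.

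Promoter sequence is shown for the kinases whose KO arrays all lay below WT (Pdk3 and Pdk2) and for the one with a higher KO mean (Pdk1). Each runs from 250 bases before to 50 after the start of transcription, from RefSeq on GRCm38.p6, 5′ to 3′ on the gene's strand. Of the 7 genes 6 were in the sequence table. Capitals mark matches on either strand to 4 motifs. The first is the hypoxia response element core ACGTG. The second is that core's other form, GCGTG. The third is the E-box CACGTG, which contains the first. The fourth is the FOXO-type core TGTTTAC. For Pdk1 and Pdk2 the upstream of the starts listed is shown. The windows are chrX:93832101-93832400 (minus strand) for Pdk3, chr11:95041322-95041621 (minus strand) for Pdk2 and chr2:71872974-71873273 (plus strand) for Pdk1.
Pdk3: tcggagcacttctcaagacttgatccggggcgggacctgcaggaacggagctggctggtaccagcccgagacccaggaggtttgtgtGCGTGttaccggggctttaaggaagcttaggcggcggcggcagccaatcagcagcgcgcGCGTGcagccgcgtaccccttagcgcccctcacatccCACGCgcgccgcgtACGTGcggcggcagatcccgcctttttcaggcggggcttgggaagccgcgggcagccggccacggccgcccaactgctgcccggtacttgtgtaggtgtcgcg
Pdk2: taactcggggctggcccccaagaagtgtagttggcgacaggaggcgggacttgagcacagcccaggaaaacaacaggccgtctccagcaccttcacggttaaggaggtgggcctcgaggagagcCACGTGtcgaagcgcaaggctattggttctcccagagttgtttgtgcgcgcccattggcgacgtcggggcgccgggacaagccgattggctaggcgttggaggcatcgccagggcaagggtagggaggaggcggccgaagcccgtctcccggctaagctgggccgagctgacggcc
Pdk1: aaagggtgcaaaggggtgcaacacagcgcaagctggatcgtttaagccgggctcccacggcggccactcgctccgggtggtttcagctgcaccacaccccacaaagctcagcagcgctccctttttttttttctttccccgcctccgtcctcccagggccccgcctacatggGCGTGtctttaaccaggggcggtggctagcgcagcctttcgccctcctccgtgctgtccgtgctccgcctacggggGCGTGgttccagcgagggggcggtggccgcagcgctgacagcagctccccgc

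The Pdk3 window held 3 matches to the second motif and 1 to the first. The Pdk2 window held 1 E-box, which gives the first motif on both strands, and the Pdk1 window 2 matches to the second. The windows at the other listed starts of Pdk1 and Pdk2, which are not shown, held no match. Of the 6 genes 4 held the first motif, 3 the second and 3 the E-box, so these matches were not particular to the 3 kinases shown. The FOXO-type core was in none of the windows of the 6 genes. Over 32851 promoter windows of the same length 19.6% held the first motif, 32.4% the second, 7.15% the E-box and 3.65% the FOXO-type core. The 3 windows were rich in G and C (68.0%, 64.7% and 66.0%, against a median of 52.7%), and 3 of these motifs contain CpG. A match is a description of letters and not a bound site.

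The enzyme that the kinases act on showed no gene past the threshold. Of the 5 tested core subunits of the complex 4 were lower and 1 higher, where 59.7% of all tested genes were lower. Their median was -0.22, and 0.058 without KO replicate 1. Pdhx, which tethers the E3 component, differed by -0.39 (limma adjusted p = 0.552) and by -0.16 without that array. Pdhb, the E1 beta subunit, differed by -0.26 (0.716) and by -0.0035 without it. The related kinase and phosphatase of branched-chain keto acid dehydrogenase, Bckdk (-0.10) and Ppm1k (-0.15), did not pass either. Without KO replicate 1 they differed by -0.18 and 0.039, the second with its direction turned. Among 7 tested genes of pyruvate transport and its other fates 3 were lower and 4 higher (median 0.016, and -0.058 without KO replicate 1). Mpc2, a subunit of the mitochondrial pyruvate carrier listed under the older symbol Brp44, differed by -0.28 without overlap (limma adjusted p = 0.51). Slc16a3, a lactate exporter, differed by -0.39 (0.543). Of 4 tested genes of lipoate and thiamine supply 3 were lower (median -0.14, and -0.068 without KO replicate 1), with Lipt2 at -0.19 and the thiamine transporter Slc19a2 at 0.18 (0.11 without that array).

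Transcription factors known to act on Pdk genes did not pass either. Of 13 tested 10 had higher and 3 lower KO means (median 0.046), 3 higher and 2 lower without overlap, and 0 passed. Over all tested genes 59.7% lay below 0, and without overlap 11.3% were lower and 6.1% higher. Foxo3, a forkhead factor restrained by Akt, stood at 8.05 ± 0.27 in WT and 8.46 ± 0.12 in KO (0.41, SE 0.166, limma adjusted p = 0.424, n = 3 each). Pparg, a nuclear receptor of lipid metabolism, stood at 6.91 ± 0.39 and 6.31 ± 0.08 (-0.61, SE 0.193, 0.301), with its KO mean under the olfactory receptor percentile. Of 16 tested hypoxia-inducible factor targets 9 were higher and 7 lower (median 0.039), with 3 lower without overlap. Egln3, a hydroxylase that marks that factor for degradation, stood at 8.65 ± 0.04 in WT and 7.98 ± 0.32 in KO (-0.67, SE 0.173, limma adjusted p = 0.21; -0.54 without KO replicate 1). Ddit4, an inhibitor of mTOR signalling, differed by 0.46 (0.398). Of 16 tested FOXO and PPAR targets 13 were lower and 3 higher (median -0.11, and 0.0045 without KO replicate 1). The 2 with the smallest p were among the 3 higher, Txnip (0.32, limma adjusted p = 0.44), which limits glucose uptake, and Klf2 (0.35, 0.501), a quiescence factor. None of the genes in these lists passed limma's threshold over all genes.

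**Figure D4:**
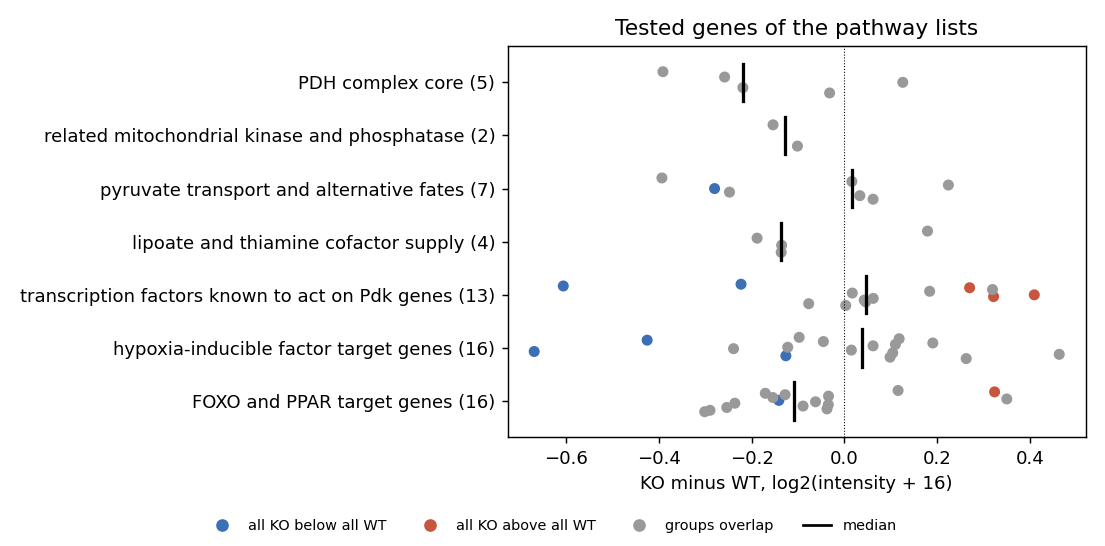
KO minus WT difference, on the log2(intensity + 16) scale, of each tested gene in the 7 pathway lists, with the number tested in brackets. Blue and red mark genes whose groups do not overlap, and black lines the list medians, which run from -0.22 for the complex core to 0.046 for the transcription factors.

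The genes whose values followed each tested member most closely over the 6 arrays were taken by Pearson's r among 11469 named tested genes. With 6 arrays and that many genes high values of r arise readily, so they describe these arrays. Pdk3 was followed most closely by the amino acid transporter Slc36a4 (r = 0.997; difference -0.47) and Rabl5 (0.990; -0.43). Pdk2 was followed by Nmb (0.993) and Spats1 (0.989), and Pdk1 by Prdm15 (0.997) and Pigo (0.989). For the phosphatase genes they were Ddx27 (0.995) and Id3 (0.989) with Pdp1, Wdr91 (0.984) and Pigl (0.978) with Pdp2, and Itgb1bp2 (0.990) and Zkscan6 (0.989) with Pdpr. None of these genes passed limma's threshold.

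**Figure D5:**
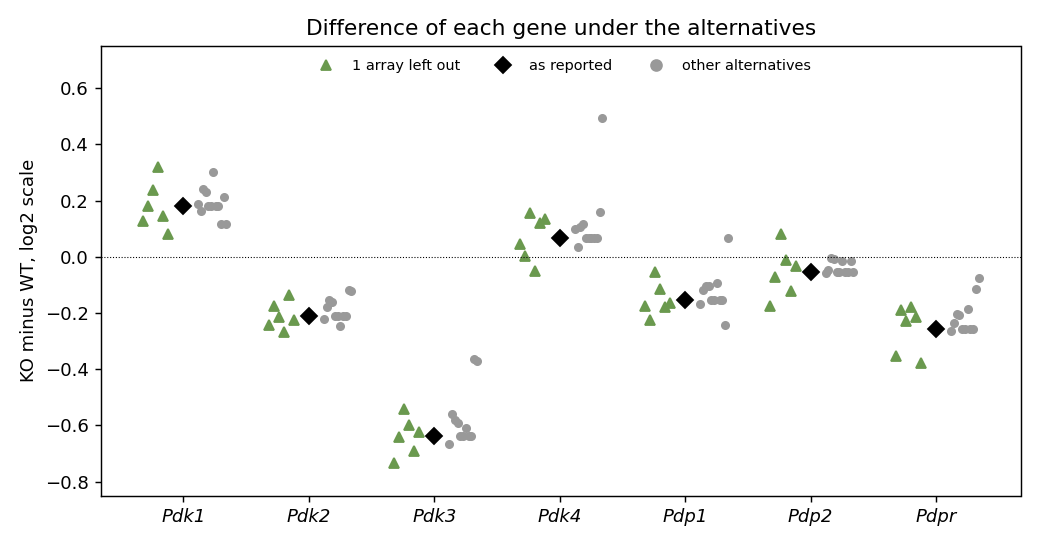
KO minus WT difference of each gene as reported (diamond), with 1 array left out (triangles) and under the other alternatives (grey points), on the log2 scale. Pdk3 stays between -0.73 and -0.36 in all of them, and Pdk4, Pdp1 and Pdp2 have points on both sides of 0.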

How the data were processed

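The authors deposited linear intensities, 1 value per exon-level probe set and array, made with PLIER in Affymetrix Expression Console 1.4, per the submitters' processing notes. How background and scale were handled, the genome build and the annotation version are not given in the sources used here. Sample titles gave the groups and the replicate numbers. Values were taken as log2(intensity + 16), which understates differences of dim probe sets, with no further scaling. For a gene, the median was taken over all probe sets naming it alone. The dimmest genes, with means below the 40th percentile (5.90), were not tested, 9261 in all. Genotypes were compared by limma 3.58.1 (R 4.3.3; two-sided moderated test with Benjamini-Hochberg adjustment over all 13891 genes, or all 269751 probe sets without a filter), which was tested on simulated data. Intervals are 95%.

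The members, lists and tests were chosen with earlier results of these data known. All members were named, with their probe sets of largest difference, smallest p or no overlap; the brightest probe sets of Pdk4 and Pdp1, Pdk4 probe set 17464662, Pdk3 probe set 17543212 and Pdk1 probe set 17548206 were named after their values were seen. Also named were Park7, the genes of each pathway list past the threshold or else the 2 with the smallest p, and the 2 genes most alike each tested member. Alternatives were pseudocounts of 1 and 64, other filters, quantile normalization, median centring, averaging in place of the median, bright probe sets (at or above the median probe set), other variance models, an adjusted p of 0.10, the replicate number as a block and each array left out.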

Additional observations from a re-analysis of the deposited data

How the results depend on the processing

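At an adjusted p of 0.05 no member gene or member probe set passed under any alternative run for them. At 0.10 none passed in the fit as reported; the smallest limma adjusted p of Pdk3 was 0.0661, with array weights, and the largest 0.521, without WT replicate 2. Pdk1, Pdk2, Pdk3 and Pdpr kept their direction under every alternative run for them. With bright probe sets alone Pdp2 was no longer among the tested members. Their median was then -0.075, beside -0.038 over all tested genes. In that setting Pdk4 differed by 0.50 and Pdp1 by 0.068, the last with its direction turned. Each of these values equalled the difference of a single probe set of the gene, for Pdk4 17464662. The other Pdk4 probe sets above the olfactory receptor level differed by 0.14 and 0.074. With 1 array left out Pdp2 ranged from -0.17 to 0.081, turning higher without WT replicate 3. The cause was not tested. The replicate numbers were not shown to pair the mice: deviations of same-numbered arrays correlated by 0.15, 0.169 and 0.0101, and 4 of 6 arrays correlated best with their own number. With the replicate number as a block Pdk3 had a limma adjusted p of 0.137 and 0 members passed. Of all tested genes 67 passed with that block, against 38 in the fit as reported. An unmoderated test passed 0 of 13891 genes. The 3 arrays a group and the dim signal of Pdk4 limit these values.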
